A study of Mus musculus with 9 samples.

Results

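The T cell receptor (TCR) complex and its proximal signalling machinery were followed as 42 genes, out of 41978 in the deposited table, each found by its gene symbol. The genes were chosen for their known function in TCR signalling and were divided into 31 positive components and 11 negative regulators. They were chosen with earlier results of these data known, so counts over them are no independent test. All 42 genes passed the filter on low values, which kept 30693 genes with at least 1 TPM (transcript counts scaled to gene length and library size) in at least 3 samples. Fyn, Ptprc, Themis, Grap, Sh2d2a and Sla have roles on both sides and were placed on the side each is best known for.

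RNA was sequenced from semimature SP4 thymocytes of Nur77-eGFP BAC Tg mice, in which GFP reports transcription of Nr4a1, an immediate target of TCR signalling. All groups carried the same transgene and came from the same gate, live CD25- CD69+ CD24+ CD4+ CD8- cells, and 10000 cells per sample were sorted from about 10% of the GFP distribution at its low end (GFPlo), its middle (GFPmed) and its high end (GFPhi). Each group had 3 samples, labelled biological replicates, and nothing in the sources used here says whether samples with the same number shared a mouse. The study used mice of 3 to 10 weeks, of both sexes, and no single age is given for these samples. As a check of the sort, Nr4a1 ran from 187 to 251 TPM in GFPlo, from 351 to 406 in GFPmed and from 767 to 917 in GFPhi.

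The TCR has no enzyme activity of its own. Its antigen-binding chains pair with the CD3 and zeta chains, whose tyrosines are phosphorylated by the Src kinases Lck and Fyn and then bind Zap70, which phosphorylates the scaffolds Lat and Lcp2 (SLP-76). These hold phospholipase C gamma 1, Grb2 and Vav1, from which calcium, Ras, protein kinase C theta and the actin cytoskeleton are engaged, while phosphatases, the kinase Csk, ubiquitin ligases and inhibitory adaptors keep the cascade in check. In the thymus the strength of this signal sets whether a cell is positively selected, deleted or diverted to the Treg lineage.

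Between GFPhi and GFPlo, 9 of the 42 genes passed the test, by limma on log2(TPM + 1) with Benjamini-Hochberg adjustment over all genes tested and a threshold of 0.05. Of all genes, 3.89% passed. The 5 that rose were the negative regulators Ptpn22, Lax1 and Ubash3a and the positive components Plcg1 and Ptprc. The 4 that fell, Prkcq, Rasgrp1, Tespa1 and Rhoh, were all positive components. Of all genes, 2.38% were called higher and 1.51% lower. All 9 changes were below 2-fold. The study's further limit is a log2 change of 1 or more in size, which 1.66% of all genes met. With it, 0 of the 42 were called. An unadjusted limma p under 0.05 was found for 20 of the 42 and for 4244 of the 30693 genes tested. In bulk RNA such as this, fewer cells of a type and less RNA per cell cannot be told apart.

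These 9 calls depended on how the libraries were scaled. The TPM were also rescaled by median-of-ratios factors over all genes above 0 in every sample, a common alternative. Then 0 of the 42 genes were called, against 1.35% of all genes. An unadjusted limma p under 0.05 was found for 7 of the 42 and for 3032 of the 30693 genes tested. The factors ran from 0.874 to 1.21, and the median spread of the 42 genes within a group rose from an SD of 0.111 to 0.239 on the log2 scale. Under this scaling the adjusted p by limma was 0.0503 for Ptpn22 and 0.104 for Lax1, between 0.157 and 0.248 for the other risers, and 0.487 or more for the 4 that fell. All 9 log2 fold changes kept their direction with larger errors, and the value of Plcg1 went from 0.56 ± 0.07 (SE) to 0.64 ± 0.17 and that of Prkcq from -0.48 ± 0.07 to -0.39 ± 0.17. The calls of all genes also shifted, from 730 higher and 464 lower to 338 higher and 75 lower. After this result was seen, factors over genes with a mean TPM of at least 20 were added. These ran from 0.953 to 1.04 and gave 12 calls of the 42, and 1391 of the 30693 genes tested. In the other direction, limma-voom on reads solved from the table, scaled by library totals, called 20 of the 42 genes (7 higher and 13 lower), against 7.18% of all genes. The direction of each of the 9 genes was the same in all 22 refits.

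**Figure D1:**
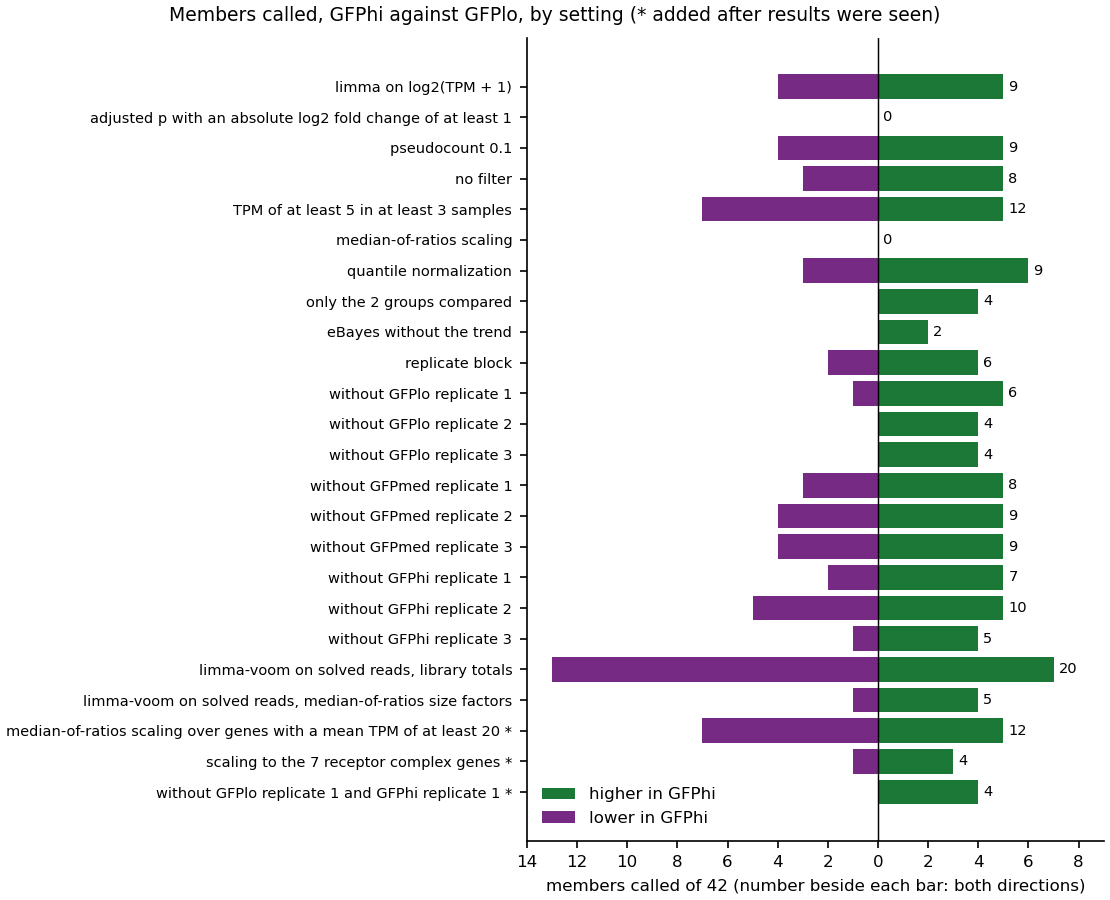
Number of the 42 genes called between GFPhi and GFPlo under each setting, with genes higher in GFPhi to the right of 0 and genes lower to the left. Calls ran from 0 under median-of-ratios scaling over all genes to 20 under limma-voom with library totals, and settings marked with an asterisk were added after results were seen.

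Among the negative regulators, 3 of 11 rose, 0 fell and 8 did not pass. Limma-voom with library totals, which called 7.18% of all genes, called 6 of the 11. Ptpn22, Lax1 and Ubash3a were higher and Pag1, Dok2 and Sla lower. Ptpn22, a tyrosine phosphatase that acts on activated Src kinases and Zap70, had 26.8, 26.9 and 26.02 TPM in GFPlo, 30.4, 28.6 and 27.4 in GFPmed, and 44.0, 45.2 and 49.7 in GFPhi. All GFPhi samples lay above the other 6. From GFPlo to GFPhi it rose by 0.78 ± 0.08 on the log2 scale (SE, n = 3 each; limma adjusted p = 0.00231). It also rose between GFPmed and GFPhi, by 0.66 ± 0.08 (limma adjusted p = 0.00958), and was the only one of the 42 genes to pass there, where 1.51% of all genes did. That call was lost without GFPmed replicate 2, without GFPhi replicate 3, with only the 2 groups in the fit, and when scaled by median of ratios or to the 7 receptor genes.

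Lax1, a transmembrane adaptor that limits antigen receptor signalling, had 18.4, 18.3 and 16.9 TPM in GFPlo, 25.0, 21.7 and 23.96 in GFPmed, and 27.0, 29.4 and 36.2 in GFPhi. The groups formed 3 separate steps, with the widest spread in GFPhi. It rose by 0.75 ± 0.13 (limma adjusted p = 0.0172), on 249 to 648 reads per sample, the fewest of the 9.

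Ubash3a, a ubiquitin-binding member of the suppressor of TCR signalling (Sts) family, had 144.7, 140.6 and 142.8 TPM in GFPlo, 162, 155 and 160.2 in GFPmed, and 182, 196 and 197 in GFPhi. No sample of one group overlapped another group. The change was 0.42 ± 0.05 (limma adjusted p = 0.0047), the smallest among the 5 that rose.

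Of the positive components, 2 of 31 rose, 4 fell and 25 did not pass. Plcg1, the phospholipase that makes diacylglycerol and inositol trisphosphate below Lat, had 190.3, 194 and 204 TPM in GFPlo, 252, 237 and 219.8 in GFPmed, and 275, 285 and 309 in GFPhi. Again the 3 groups did not overlap, and GFPmed lay 47.2% of the way from GFPlo to GFPhi on the log2 scale. It rose by 0.56 ± 0.07 (limma adjusted p = 0.0053). Its exons share 379 of 7857 bases with Zhx3 on the opposite strand, and no source used here states that counting used strand.

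Ptprc, which encodes CD45, the phosphatase that both primes and restrains Lck, had 267, 267 and 269.8 TPM in GFPlo, 345, 326 and 316 in GFPmed, and 343, 379 and 385 in GFPhi. GFPmed and GFPhi overlapped, since GFPmed replicate 1 was above GFPhi replicate 1, and both lay above all of GFPlo. The change between GFPhi and GFPlo was 0.46 ± 0.06 (limma adjusted p = 0.00597).

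Prkcq, encoding protein kinase C theta, the link from diacylglycerol to Bcl10 and Malt1, had 43.1, 42.5 and 43.8 TPM in GFPlo, 41.6, 39.4 and 38.7 in GFPmed, and 28.9, 32.2 and 31.1 in GFPhi. It fell by 0.48 on the log2 scale (SE 0.07, limma adjusted p = 0.0128). Rasgrp1, the diacylglycerol-activated exchange factor for Ras, had 133.6, 132 and 126 TPM in GFPlo, 125, 114 and 107 in GFPmed, and 87.0, 99.6 and 94.4 in GFPhi. It too fell by 0.48 (SE 0.08, limma adjusted p = 0.0172). In both genes every GFPhi sample lay below every GFPmed sample, and every GFPmed sample below every GFPlo sample.

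Tespa1, a thymocyte protein needed for positive selection that works close to the inositol trisphosphate receptor, had 64.5, 64.7 and 62.5 TPM in GFPlo, 60.4, 59.9 and 59.3 in GFPmed, and 45.6, 44.5 and 51.9 in GFPhi. It fell by 0.43 (SE 0.07, limma adjusted p = 0.0194), and its groups did not overlap. Rhoh, a GTP-binding protein without GTPase activity that helps bring Zap70 to the receptor, had 138, 143 and 144 TPM in GFPlo, 123, 140.4 and 115 in GFPmed, and 105, 105 and 114 in GFPhi. Its fall of 0.39 (SE 0.08, limma adjusted p = 0.0401) was the smallest of the 9 changes and held its call in 6 of 22 refits, while Ptpn22 held its call in 21. GFPmed replicate 2 of Rhoh was within the GFPlo range.

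**Figure D2:**
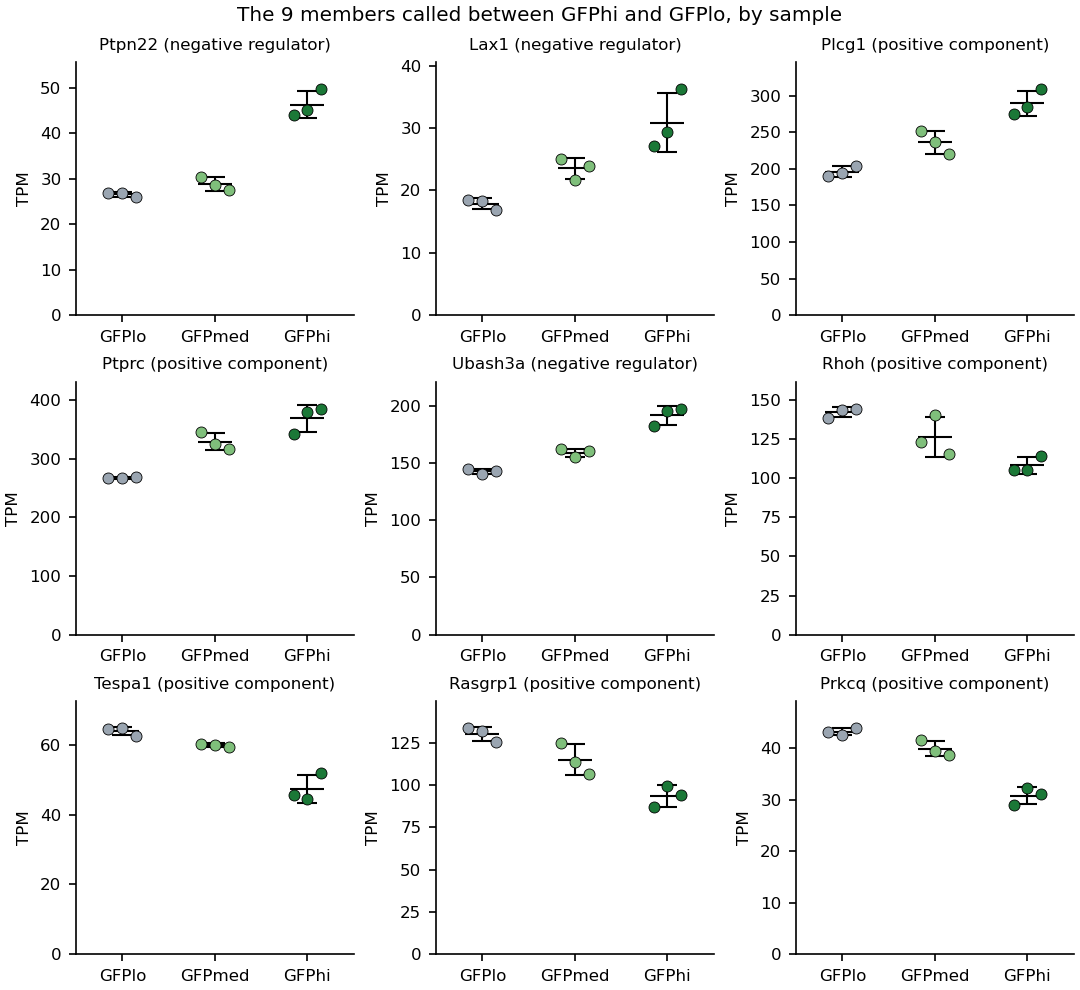
TPM of the 9 called genes in each sample, on axes that start at 0, with points for the samples of GFPlo, GFPmed and GFPhi and bars for the mean ± SD of each group (n = 3). In every panel the 3 GFPhi samples lie apart from the 3 GFPlo samples, above them in the first 5 panels and below them in the last 4.

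On GRCm38 (GENCODE M21), the genes that rose lie with Ptpn22 at chr3:103859795-103912247, Lax1 at chr1:133679091-133690108, Ubash3a at chr17:31207873-31246892, Plcg1 at chr2:160731300-160775760 and Ptprc at chr1:138062861-138175708. Those that fell lie with Prkcq at chr2:11172108-11301222, Rasgrp1 at chr2:117279993-117343001, Tespa1 at chr10:130322870-130364111 and Rhoh at chr5:65861213-65896700. Each value counts reads over the exons of the whole gene.

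The number of calls also changed when single samples were left out. Without GFPlo replicate 2 or GFPlo replicate 3, 4 genes were called (Plcg1, Ptpn22, Ptprc and Ubash3a in each case), and without GFPhi replicate 3, 5 were. With only the 6 samples of the 2 groups in the fit, the same 4 were called, and without the trend in the variance prior only Lax1 and Ptpn22 were. None of the falls of Prkcq, Rasgrp1, Tespa1 and Rhoh was called in 4 of these 5 settings, and without GFPhi replicate 3 that of Tespa1 was. Calls over all genes fell as well, from 1194 of 30693 with all samples. They were 599 of 30199 without GFPlo replicate 2, 674 of 30414 without GFPlo replicate 3 and 620 of 30242 without GFPhi replicate 3. With only the 2 groups they were 551 of 30693, and without the trend 874 of 30693. Without GFPlo replicate 2, GFPlo replicate 3 or GFPhi replicate 3, the log2 fold changes were -0.47, -0.50 and -0.48 for Rasgrp1 and -0.49, -0.47 and -0.49 for Prkcq, with limma adjusted p from 0.0517 to 0.0784. For Lax1 they were 0.76, 0.71 and 0.63, with limma adjusted p of 0.0658, 0.0723 and 0.0507.

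GFPmed stood between the outer groups for these genes. Between GFPmed and GFPlo 0 of the 42 were called by limma, where 0.0749% of all genes were. An unadjusted limma p under 0.05 was found for 5 of the 42 and for 1432 of the 30693 genes tested. Limma-voom with library totals called 1 of the 42, and 77 of the 30522 genes in that fit. On the log2 scale GFPmed lay 14.3% of the way from GFPlo to GFPhi for Ptpn22 and 64.2% of the way for Ptprc, the lowest and the highest of the 9. A test of GFPmed against the midpoint of the outer groups, added after the values were seen, called 6 of 30693 genes and none of the 42. For Ptpn22, GFPmed was 0.28 ± 0.07 below the midpoint (limma adjusted p = 0.659). The 3 comparisons share samples and are not independent of each other.

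Promoter sequence is shown for the risers with the largest change on each side, Ptpn22 and Plcg1, and for the 2 genes that fell most, Prkcq and Rasgrp1. Each is the 250 bases before the start annotated in RefSeq on GRCm38.p6. It is written in the direction of the gene, with any match to a searched motif in capitals. The RefSeq start can differ from the GENCODE position given above. By that position the Prkcq window lies inside the gene, and those of Rasgrp1 and Plcg1 overlap it in part. The motifs were AAAGGTCA (the NR4A monomer element), TGANTCA (AP-1), GGAAA (the NFAT core), and GCGGGGGCG and GCGTGGGCG (EGR), each searched on both strands, with no overlap between the matches shown.
Ptpn22, chr3:103859545-103859794, plus strand: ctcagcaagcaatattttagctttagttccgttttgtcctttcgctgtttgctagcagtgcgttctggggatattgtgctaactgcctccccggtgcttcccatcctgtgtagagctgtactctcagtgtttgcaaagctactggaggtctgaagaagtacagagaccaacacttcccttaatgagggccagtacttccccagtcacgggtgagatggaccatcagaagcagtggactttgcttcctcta
Plcg1, chr2:160731060-160731309, plus strand: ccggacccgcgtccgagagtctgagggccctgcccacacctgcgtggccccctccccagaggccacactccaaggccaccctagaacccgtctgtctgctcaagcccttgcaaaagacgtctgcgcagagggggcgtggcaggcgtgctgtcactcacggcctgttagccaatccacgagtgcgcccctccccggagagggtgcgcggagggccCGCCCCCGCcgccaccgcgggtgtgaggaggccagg
Prkcq, chr2:11172132-11172381, plus strand: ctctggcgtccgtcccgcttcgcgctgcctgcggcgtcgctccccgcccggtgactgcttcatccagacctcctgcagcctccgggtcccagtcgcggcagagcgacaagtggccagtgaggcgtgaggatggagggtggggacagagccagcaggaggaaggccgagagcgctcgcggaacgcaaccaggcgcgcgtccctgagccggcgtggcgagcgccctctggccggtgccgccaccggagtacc
Rasgrp1, chr2:117342878-117343127, minus strand: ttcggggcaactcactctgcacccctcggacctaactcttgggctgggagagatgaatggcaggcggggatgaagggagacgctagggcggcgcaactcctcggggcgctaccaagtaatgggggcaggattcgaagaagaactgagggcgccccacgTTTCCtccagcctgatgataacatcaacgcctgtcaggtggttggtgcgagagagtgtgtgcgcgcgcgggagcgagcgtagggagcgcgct
The capitals in Plcg1 are GCGGGGGCG on the opposite strand, from base -36 to base -28 before the start, and those in Rasgrp1 are GGAAA on the opposite strand, from -92 to -88. Windows were found for 30 of the 42 genes, 8 of them among the 9 called (all but Tespa1). AAAGGTCA was in 0 of the 30 and in 1.336% of all 32851 windows, TGANTCA in 0 and 6.75%, GCGTGGGCG in 0 and 0.536%, GCGGGGGCG in 2 (Plcg1 and Cbl) and 2.57%, and GGAAA in 21 and 55.6%. A match to these letters is a description of the sequence only.

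The receptor itself showed no called change. None of Cd3d, Cd3e, Cd3g, Cd247, Trac, Trbc1 and Trbc2, the signalling and constant chains of the receptor, passed by limma between GFPhi and GFPlo. Of these chains, 1 had an unadjusted limma p under 0.05, as did 4244 of the 30693 genes tested. Limma-voom with library totals, which called 7.18% of all genes, called 2 chains (Cd3e and Trac). Their log2 fold changes ran from -0.18 to 0.23 with a median of -0.05, beside -0.09 over all genes tested.

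Cd3d had 1335, 1648 and 1660 TPM in GFPlo, 1338, 1582 and 1598 in GFPmed, and 1512, 1696 and 1521 in GFPhi. Cd3e had 1149, 1220 and 1318 in GFPlo, 1177, 1232 and 1187 in GFPmed, and 1022, 1205 and 1028 in GFPhi. Cd3g had 592, 684 and 711 in GFPlo, 655, 716 and 727 in GFPmed, and 694, 770 and 669 in GFPhi. For each of these CD3 chains the 3 groups overlapped, and GFPlo replicate 1 was the lowest of its group. Cd247, the zeta chain, had 37.3, 44.7 and 43.2 TPM in GFPlo, 40.2, 41.7 and 41.5 in GFPmed, and 37.2, 39.4 and 37.6 in GFPhi. Its exons share 3007 of 5329 bases with Pou2f1 on the opposite strand. Its level therefore depends on how reads there were counted, and is uncertain.

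Trac, the alpha constant chain, had 1576, 1663 and 1895 TPM in GFPlo, 1758, 1854 and 1978 in GFPmed, and 1841, 2123 and 2032 in GFPhi. It had the largest change of the 7, 0.23 ± 0.09 (limma adjusted p = 0.295), with GFPhi replicate 1 inside the GFPlo range. Under quantile normalization Trac was called (limma adjusted p = 0.0118). Trbc1 had 2597, 3140 and 3057 in GFPlo, 2723, 3165 and 2910 in GFPmed, and 2555, 2739 and 2512 in GFPhi. Trbc2 had 3352, 4843 and 5082 in GFPlo, 4341, 4903 and 4127 in GFPmed, and 3951, 4493 and 4180 in GFPhi. The beta constant genes are near-identical copies, so the split of reads between them is uncertain, and in both the groups overlapped. When all samples were scaled to these 7 genes, a setting added after results were seen, Plcg1, Ptpn22 and Ptprc rose and Dok2 fell, against 2.93% of all genes called.

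None of the 4 kinases passed by limma, and neither did Cd28. Of the kinases, 2 had an unadjusted limma p under 0.05, as did 4244 of the 30693 genes tested. Limma-voom with library totals, which called 7.18% of all genes, called 2 kinases (Fyn and Txk) and also Cd28. Lck changed by 0.02 ± 0.08 and Zap70 by 0.11 ± 0.12. The log2 fold change of Fyn was -0.33 ± 0.08 (limma adjusted p = 0.0825), of Txk, a Tec family kinase, -0.38 ± 0.09 (limma adjusted p = 0.0724), and of Cd28, the costimulatory receptor, -0.26 ± 0.06 (limma adjusted p = 0.075). For these 3 genes each GFPhi sample lay below each GFPlo sample: Fyn ran from 28.1 to 32.1 TPM in GFPhi and from 36.5 to 40.6 in GFPlo. Txk ran from 22.0 to 25.0 against 30.0 to 32.1, and Cd28 from 149.6 to 168 against 179 to 197.

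Of the 10 adaptors, Rhoh and Tespa1 fell and 8 did not pass. Themis, which regulates the phosphatase Ptpn6 during thymocyte selection, had the largest log2 fold change of the 8, -0.53 ± 0.13 (limma adjusted p = 0.086), with 8.49 to 9.55 TPM in GFPhi and 12.01 to 15.2 in GFPlo. Grap, a Grb2 relative, changed by 0.30 ± 0.10 (limma adjusted p = 0.207) and Grap2 (Gads), which joins Lat to Lcp2, by -0.29 ± 0.13 (limma adjusted p = 0.415). Neither overlapped between GFPhi and GFPlo. The log2 fold changes of the scaffolds Lat and Lcp2, of Grb2, Nck1 and of Sh2d2a, an Lck-binding adaptor, lay between -0.18 and 0.01.

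Of the 8 effectors, Plcg1 rose, Prkcq and Rasgrp1 fell and 5 did not pass. Vav1, an exchange factor for Rac, had a log2 fold change of -0.23 ± 0.09, Was, a regulator of actin, of -0.21 ± 0.22, and Sos1, an exchange factor for Ras, of -0.19 ± 0.22. Bcl10 and Malt1, partners on the path to NF-kB, had values of 0.01 ± 0.14 and 0.10 ± 0.12. Was had the widest spread in GFPhi of these 5, from 54.5 to 102 TPM.

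Of the 8 negative regulators that did not pass, 6 had log2 fold changes below 0. Pag1, the membrane anchor of Csk, had 10.75, 10.5 and 12.1 TPM in GFPlo, 11.2, 10.7 and 9.44 in GFPmed, and 6.52, 4.10 and 6.88 in GFPhi. All GFPhi samples were below the other 6, and the log2 fold change of -0.85 ± 0.20 was the largest of the 42 in size, yet it did not pass (limma adjusted p = 0.0618). It was called lower by limma-voom with library totals (-0.96, adjusted p = 0.000415) and with median-of-ratios factors (-0.88, adjusted p = 0.00253). Csk, which phosphorylates the inhibitory tyrosine of Src kinases, had a value of -0.30 ± 0.14, and its groups overlapped.

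Dok2, an adaptor that recruits the Ras GTPase-activating protein, had 695, 685 and 776 TPM in GFPlo, 617, 624 and 672 in GFPmed, and 441, 602 and 506 in GFPhi. Its log2 fold change was -0.49 ± 0.11 (limma adjusted p = 0.0596), with no overlap between GFPhi and GFPlo. Its relative Dok1 had a value of 0.29 ± 0.16 on 58 to 156 reads per sample. Pag1, Dok2 and Txk passed when genes were required to reach 5 TPM in at least 3 samples, with limma adjusted p of 0.045, 0.0433 and 0.0444. Dok2 was called lower in 6 of the 22 refits and Pag1 in 3.

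Cbl, a ubiquitin ligase, and Sla and Sla2, adaptors that promote turnover of the receptor, had log2 fold changes of -0.30 ± 0.14, -0.22 ± 0.07 and -0.24 ± 0.10. Ptpn6 (SHP-1) had 0.09 ± 0.08. The median over the 11 negative regulators was -0.22, and that over the 31 positive components was -0.17, beside -0.09 over all genes tested. The median of the 11 was the value of Sla itself, with Sla2 (-0.24) and Ptpn6 (0.09) next to it in order. Without Sla the median of the negative regulators was -0.07, a shift larger than the spread between replicates. That shift comes from the gap between these 2 genes.

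**Figure D3:**
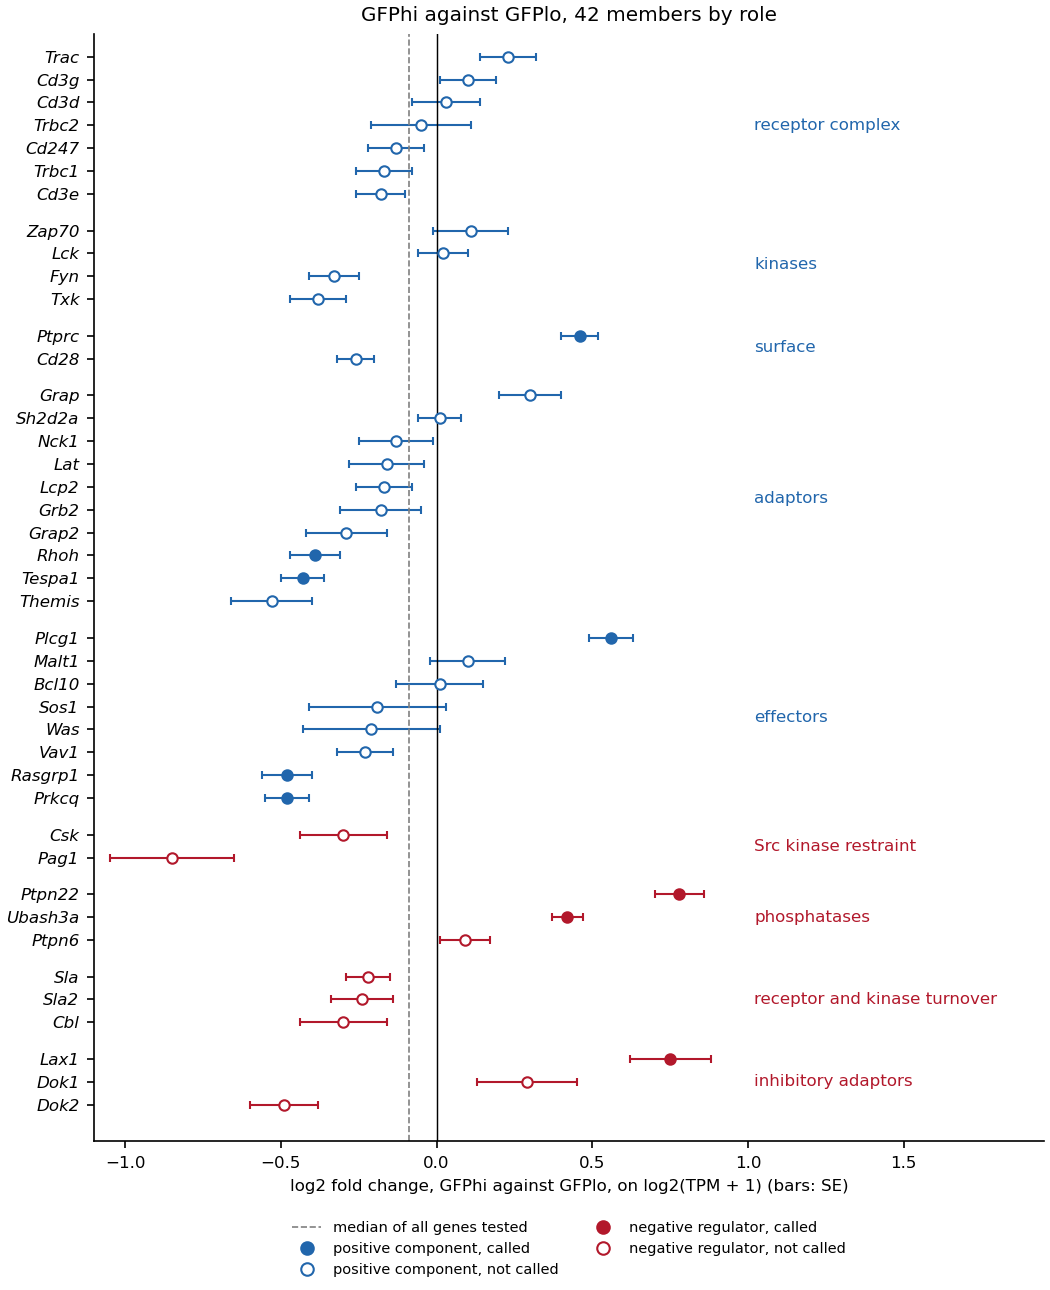
Log2 fold change between GFPhi and GFPlo of all 42 genes, grouped by role, with bars for the SE; filled points passed the limma test and open points did not. The receptor chains lie within 0.23 of 0, while the phosphatases Ptpn22 and Ubash3a and the adaptor Lax1 lie to the right and Pag1 lies farthest to the left at -0.85.

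Without regard to the test, the samples of GFPhi and GFPlo did not overlap for 22 of the 42 genes, or 52.4%, against 18.2% of all genes tested. GFPhi was higher in 6 of them (Plcg1, Grap, Ptpn22, Ptprc, Lax1 and Ubash3a) and lower in 16, of which 12 were positive components and 4 were negative regulators. The 18.2% covers every gene past the low filter, including genes with few reads. The part of read number in the difference between the shares was not tested. As the 42 genes were chosen with earlier results of these data known, their share is no independent test.

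Levels between genes were compared as exonic RPKM, reads per kilobase of exon scaled to library size, because the deposited TPM use gene lengths that include introns. Trbc2, at a median of 1724 over the 9 samples, Trac at 1090 and Trbc1 at 862 were the highest of the 42 genes on this scale, followed by Lck at 551. The CD3 chains Cd3d, Cd3e and Cd3g lay between 262 and 333, while Cd247 stood at 81.4. That value is uncertain, since 3007 of the 5329 exonic bases of Cd247 overlap Pou2f1. The order of Trbc1 and Trbc2 is uncertain too, as their reads are hard to split. Ptpn6, at 214, was the most abundant negative regulator, and the called regulators were lower: Ubash3a stood at 35.5, Lax1 at 18.8 and Ptpn22 at 15.7. Sos1, Dok1 and Malt1 were the lowest, at 5.005 to 5.80.

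**Figure D4:**
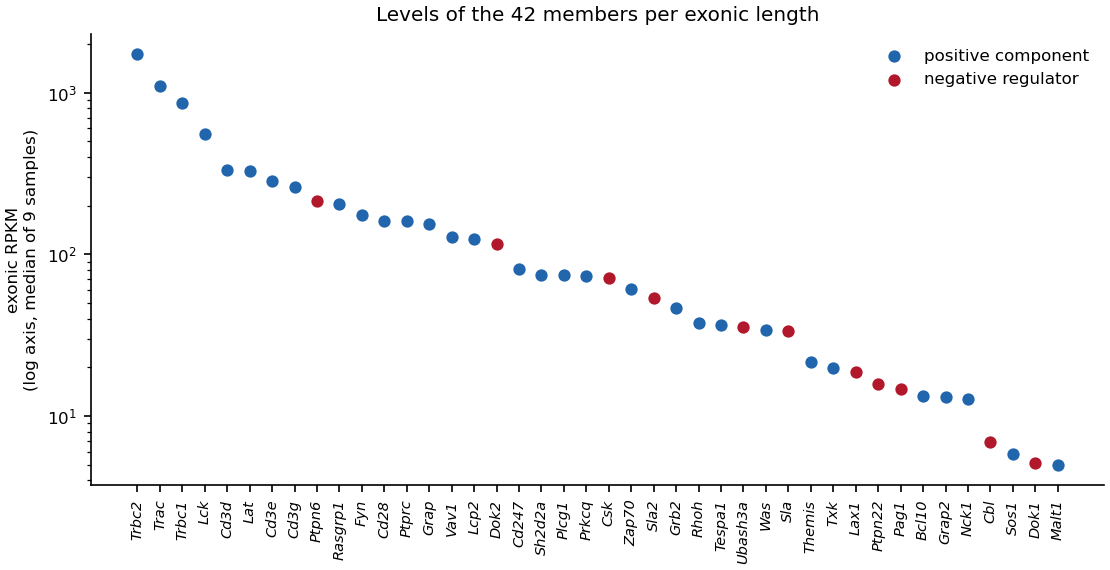
Exonic RPKM of the 42 genes, as the median of the 9 samples on a log axis, in falling order. Levels span from 1724 for Trbc2 to 5.005 for Malt1, and the negative regulators run from Ptpn6 at 214 to Dok1 at 5.12.

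Other genes of the pathway, from a list of 40 positive and 25 negative genes, had 13 calls among the 64 tested (Cblc was below the filter), where 3.89% of all genes were called, 2.38% higher and 1.51% lower. The list was chosen with earlier results of these data known, so the count is no independent test. Genes with roles on both sides were not set apart in it. Limma-voom with library totals called 30, 20 higher and 10 lower. That fit called 7.18% of all 30522 genes in it, 1236 higher and 956 lower. Among the positive genes 3 rose and 4 fell. Rac2, a small GTPase below Vav1, rose by 0.46, Pik3r1, the regulatory subunit of phosphoinositide 3-kinase, by 0.55 and Unc119, an activator of Src kinases, by 0.85. Trat1, a receptor-associated adaptor, fell by 1.18, Itpr1, a receptor for inositol trisphosphate on calcium stores, by 0.96, Rac1 by 0.41 and Map2k1, a kinase above Erk, by 0.39 on the log2 scale. Unc119 had as few as 42 reads in a sample. Itpr1 held its call in 22 of 22 refits, Trat1 in 21 and Map2k1 in 7. For Rac2, Rac1, Pik3r1 and Unc119 the number was 14 to 16.

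Among the negative genes 6 rose and 0 fell by limma on log2(TPM + 1). Limma-voom with library totals called 10 higher and 3 lower (Pstpip1, Ptpn7 and Rasal3), where 7.18% of all genes were called. Cd5, a surface inhibitor that scales with self-reactivity, had 193 ± 16.7 TPM in GFPlo, 318 ± 1.67 in GFPmed and 592 ± 75.3 in GFPhi (SD, n = 3), and rose by 1.61. Its relative Cd6 rose by 1.60, the ubiquitin ligase Cblb by 1.16, Rasal1, a Ras GTPase-activating protein, by 0.83, Dgka, which removes diacylglycerol, by 0.82, and the adaptor Stap1 by 0.80. The limma adjusted p of these 6 ran from 0.000065 for Cd6 to 0.0419 for Rasal1. Rasal1 held its call in 6 of 22 refits, and Cd5, Cd6, Cblb, Dgka and Stap1 held theirs in all 22. Cd6 was also called between GFPmed and GFPlo (0.75, limma adjusted p = 0.0299). Under median-of-ratios scaling Cd5, Cd6, Cblb, Dgka and Stap1 still passed, and of the positive genes only Itpr1 did.

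Other markers moved with the sort. Of the maturation markers, S1pr1 ran from 6.35 to 9.39 TPM in GFPlo, 18.2 to 23.6 in GFPmed and 212 to 231 in GFPhi, and Klf2 from 77.5 to 96.0, 159 to 202 and 506 to 586, and both rose. The Treg markers Foxp3, Il2ra and Ikzf4 (3 of 3 higher) summed to 13.7 to 14.1 TPM, 18.3 to 20.7 and 58.9 to 72.8 in the same order. Of 6 markers of SP4 thymocytes all were expressed, and Cd69 and Gata3 fell. Markers of B cells summed to 11.7 to 31.4 TPM over all samples and those of myeloid and dendritic cells to 79.7 to 103, with 0 of 6 and 0 of 7 called. CD8 lineage genes summed to 55.6 to 62.5 in GFPlo and 45.4 to 55.4 in GFPhi (1 higher and 2 lower of 4). Immature thymocyte genes summed to 18.8 to 20.95 in GFPlo and 8.14 to 13.5 in GFPhi, where Dntt fell. NK, NKT and gamma delta T cell genes summed to 17.5 to 29.3 in all samples, with 0 of 5 called and Tbx21 at 0 in a GFPmed sample, the 4 thymic epithelial genes to 3.47 to 12.6, where Epcam rose, and the erythroid gene Hbb-bs to 1.51 to 7.54. The part of these markers in the results above was not tested.

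Depth ran from 7465552 to 14943774 reads per sample. GFPhi replicate 1 was the lowest of its group in 31 of 42 and GFPhi replicate 2 the highest in 26, and GFPlo replicate 1 was the lowest in 24 and GFPlo replicate 3 the highest in 28. GFPlo replicate 1 and GFPhi replicate 1 also held the most reads in olfactory and vomeronasal receptor genes, 4634 and 4580 RPM, reads scaled to library size, against 2153 to 3512 in the other 7 samples. Without both of these samples Plcg1, Ptpn22, Ptprc and Ubash3a were called. The part of this difference between samples in the other calls was not tested.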

How the data were processed

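Libraries were made with SMART-seq v4 and NexteraXT from 2000 cell equivalents of RNA, of 10000 cells sorted per sample. Per the methods, the authors trimmed reads, aligned them with STAR 2.7.11b to GRCm38, removed duplicates and counted reads per gene, and they deposited TPM, with group mean signal (counts divided by DESeq2 1.34.0 size factors). Deposited log2 fold changes, adjusted p-values and score columns of the authors' own comparisons were not used, and 0 sample columns were unmapped. The TPM use the mean transcript span, introns included, as gene length. TPM are not counts, so limma 3.58.1 (R 4.3.3) was run on log2(TPM + 1) with a trended prior over all 9 samples, and fold changes on this scale understate those of low genes. Reads were solved from TPM and group signal for 41578 of 41978 genes, with 100% of values whole within 0.01, and were tested with limma-voom as an alternative. P-values measure the spread between these samples, which may be technical.

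The members and lists were chosen with earlier results of these data known. Named were all members, with sample values for those called and for the receptor chains, the members with the largest changes not called in each role, and the called genes of the further pathway list. Of 22 refits, 19 were planned (9 of them leaving out 1 sample) and 3 were added after results were seen; the scaling over genes of at least 20 mean TPM was added after the planned scaling gave 0 calls. The procedure was tested on simulated data in 2 versions: the first missed many changed genes, and the second, written after that was seen, drew changed genes from well-covered genes only. In both, few changes of the size most members show were recovered, so a member not called is not shown to be unchanged. Planned protein stretches were not analysed here, and 1 maturation marker is not reported here. Promoters came from RefSeq, exonic lengths from GENCODE M21.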

Additional observations from a re-analysis of the deposited data

How the results depend on the processing

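With 3 samples per group, changes of the size of most members could be missed. Members called between GFPhi and GFPlo, 9 in the report, were 0 with the fold limit, 0 with median-of-ratios scaling, 4 with only the 2 groups compared, 2 without the trend, 20 and 5 with limma-voom on library totals and on median-of-ratios factors, and, added later, 12 with factors over genes of at least 20 mean TPM, 4 when scaled to the 7 receptor genes and 4 without GFPlo replicate 1 and GFPhi replicate 1. In the same order, calls over all genes went from 1194 to 511, 413, 551, 874, 2192 and 1057. For the added settings they were 1391, 898 and 561. Pseudocount 0.1, no filter, the 5 TPM filter and quantile normalization gave 8 to 12, and 1022 to 1278 over all genes. Leaving out 1 sample gave 4 to 10, lowest without GFPlo replicate 2 or 3 (4) and GFPhi replicate 3 (5), and 599 to 930 over all genes. Between GFPhi and GFPmed, 1 became 3 with the 5 TPM filter, 0 with the fold limit, median-of-ratios scaling, the 2 groups alone and receptor scaling, 13 and 2 with the voom fits and 4 with the added factors, and 0 to 1 without 1 sample (0 without GFPmed replicate 2 or GFPhi replicate 3). Over all genes 463 became 559 with the 5 TPM filter. Median-of-ratios scaling, the 2 groups alone and receptor scaling gave 104, 218 and 339. The voom fits gave 1493 and 549, the added factors 664, and leaving out 1 sample 170 to 381. Between GFPmed and GFPlo, 0 became 1 with voom on library totals and stayed 0 in the other settings. Over all genes 23 became 77 with that fit and 0 to 38 in the other refits. The other pathway genes called, 13, were 4 with the fold limit, 6 with median-of-ratios scaling, 7 with the 2 groups alone, 30 with voom on library totals and 8 to 12 without 1 sample (8 without GFPlo replicate 2 or 3 or GFPhi replicate 3). The median of the positive components went from -0.17 to -0.08 under both median-of-ratios fits, and that of the negative regulators from -0.22 to -0.14 under both and to -0.07 without Sla. The causes were not tested. With the replicate block, 6 members were called (without Lax1, Rhoh and Tespa1), 1 between GFPhi and GFPmed and 0 between GFPmed and GFPlo, and 11 other pathway genes. The block called 955, 286 and 5 of all 30693 genes in the 3 comparisons. Same-numbered samples correlated at 0.012 to 0.225 after group means were removed, and 4 of 9 samples were closest to their own number in both other groups, and the sources state no pairing. The correlation was above 0 in all 9 same-numbered pairs and below 0 in 14 of 18 others; whether a number marks a shared mouse was not tested. No called member changed direction in any refit.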
